A study of Rattus norvegicus with 15 samples.

Results

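A set of 10 genes of contractile and mesenchymal cells, the pancreatic stellate cells, pericytes and vascular smooth muscle cells that surround islets and their vessels, were followed in islet RNA of Lewis rats. They are Acta2, Tagln, Pdgfra, Pdgfrb, Thy1, Des, Myh11, Cnn1, Rgs5 and Cspg4, and were chosen by name with earlier results of these data known. All 10 were among the 28914 genes of the count table, each with 1 row. In that table they lie on chromosomes 1 (Acta2), 8 (Tagln, Thy1, Cnn1 and Cspg4), 9 (Des), 10 (Myh11), 13 (Rgs5), 14 (Pdgfra) and 18 (Pdgfrb). Polyadenylated RNA was sequenced from islets of Langerhans 10 weeks after surgery, in 10 rats with 90% of the pancreas removed (partial pancreatectomy, Px) and 5 rats with a sham operation (Sham). The label of each rat gives its average blood glucose before death, with no unit. Every title also carries the tag Inc_YES, whose meaning the labels do not give. In 3 Px rats the average glucose was 416, 464 and 421 (higher-glucose Px). It lay between 104 and 211 in 7 Px rats (lower-glucose Px) and between 88 and 96 in the Sham rats. The boundary between the Px groups was set at 300 for this work. All animals are labelled as Lewis rats of 4-5 weeks, without saying at which point, and the numbers in the labels are read as 1 rat per library; if rats were pooled or shared, p-values measure only the spread between these libraries, which may be technical.

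Pancreatic stellate cells lie beside acinar cells and around islets, store vitamin A when quiescent, and take on a myofibroblast form with alpha smooth muscle actin when activated. Pericytes sit on islet capillaries and depend on platelet-derived growth factor signalling through PDGF receptor beta, while smooth muscle cells surround arterioles and carry the full contractile apparatus. Transcription of many contractile genes depends on serum response factor bound to CArG boxes in their promoters.

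As islet preparations hold other cells, the counts mix several sources. Levels are given in CPM (counts per M counts of a library), on library sizes scaled by the trimmed mean of M-values (TMM). The 8 endocrine granule genes summed to 7509 to 13078 CPM in Px and to 12948 to 17350 CPM in Sham, so endocrine RNA was present in every library. The 16 acinar digestive-enzyme markers took 18.4% to 45.6% of counts in Px and 1.03% to 14.6% in Sham. Markers of other cells were also higher in Px: all 10 macrophage markers passed the test, with sums of 303 to 780 CPM in Px and 20.7 to 49.2 CPM in Sham, as did all 7 T cell markers tested (46.4 to 167 CPM in Px, 6.84 to 13.1 CPM in Sham) and 7 of 9 endothelial markers (616 to 993 CPM in Px, 420 to 625 CPM in Sham). None of the acinar, macrophage, T cell or endothelial markers was at 0 in all libraries of either group. Of the acinar, duct, mesothelial and combined Schwann cell and neuron lists, 16 of 16, 8 of 10, 3 of 4 and 4 of 8 genes tested were higher in Px and 0, 0, 1 and 2 lower, while 4 of 8 endocrine granule genes were lower and 0 higher. Over all genes tested, 34.6% were called higher in Px and 29.9% lower, and the Schwann cell and neuron counts were not far from these shares. The duct markers summed to 511 to 744 CPM in Px and 274 to 385 CPM in Sham. The mesothelial sum was lower in Px without overlap, at 663 to 989 CPM in Px and 1368 to 1800 CPM in Sham; it was mostly Msln, which fell, while the 3 genes that rose averaged under 3 CPM in Px and Upk1b was at 0 in every Sham library. The Schwann cell and neuron sum was 86.1 to 166 CPM in Px and 123 to 213 CPM in Sham, with overlap. The part of the acinar, macrophage and endothelial markers in the results was examined as a covariate, and that of the other lists was not tested. Library totals were 19.1 to 33.4 M counts in Px and 12.2 to 18.4 M counts in Sham.

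The promoters of Acta2 and Cnn1 are shown because these members moved most closely together among the Px rats. Of the 6 members with a promoter window, Acta2 alone also held CArG-like motifs. Windows of 300 bases around the start site from RefSeq (build GRCr8) matched 6 of the 10 members, namely Acta2, Cnn1, Cspg4, Des, Rgs5 and Pdgfra; Tagln, Pdgfrb, Thy1 and Myh11 were not matched. The 250 bases before the start site are printed 5′ to 3′ on the gene's strand, at chr1:241172504-241172753 (minus strand) for Acta2 and chr8:28908187-28908436 (plus strand) for Cnn1, with CArG-like matches in capitals.
Acta2: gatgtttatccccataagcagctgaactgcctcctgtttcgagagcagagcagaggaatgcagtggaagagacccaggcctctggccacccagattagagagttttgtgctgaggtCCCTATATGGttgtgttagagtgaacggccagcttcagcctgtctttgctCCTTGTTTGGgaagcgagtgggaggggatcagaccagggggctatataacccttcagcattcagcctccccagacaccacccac
Cnn1: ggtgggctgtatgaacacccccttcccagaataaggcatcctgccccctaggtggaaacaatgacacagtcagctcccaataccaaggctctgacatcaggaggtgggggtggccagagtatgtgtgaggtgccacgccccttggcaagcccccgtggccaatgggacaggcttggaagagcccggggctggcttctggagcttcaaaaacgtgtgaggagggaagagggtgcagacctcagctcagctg

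The CArG box was searched as CC, 6 bases of A or T, and GG, a motif that covers both strands in 1 reading. A perfect match occurred in 0 of the 6 member windows and in 1.64% of 27457 promoter windows of the same length. When 1 base of the core could be other than A or T, Acta2 held 2 matches, beginning 134 and 84 bases before the start site, the other 5 members held none, and 9.27% of all windows held at least 1. Among the 19 contractile apparatus genes with a window, Cnn2 and Ldb3 held a perfect match. These are matches of letters in this window and say nothing about binding.

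All 10 members rose in Px islets relative to Sham, and none fell. The fold differences ran from 1.76-fold for the pericyte proteoglycan Cspg4 to 12.7-fold for the contractile genes Tagln and Des, with a larger fitted value for the scarce Cnn1. The test (edgeR quasi-likelihood test, Benjamini-Hochberg adjustment over 15661 genes, threshold 0.05) called 34.6% of all genes higher and 29.9% lower, and the median log2 fold change was 2.90 over the members against 0.03 over all genes tested. Of the genes called, 53.7% were higher, against 26% when libraries were scaled by their totals alone and 92.8% when scaled to the endocrine granule genes, where the median of all genes was 0.63. No Px library overlapped a Sham library in any of the 10 members, a separation that 20.5% of all genes showed in this direction. Whether more cells of a type were present or each cell held more of the RNA cannot be told apart in bulk islets.

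Acta2 encodes alpha smooth muscle actin, the usual marker of activated stellate cells and of smooth muscle. It measured 388, 264 and 511 CPM in the higher-glucose Px rats, 148 to 410 CPM with a median of 306 in the lower-glucose Px rats, and 34.0, 30.6, 45.1, 54.9 and 51.3 CPM in the Sham rats. The lowest Px value, that of lower-glucose rat 11, was above the highest Sham value. Its log2 fold change for Px over Sham was 2.94 ± 0.26 (SE, n = 10 and 5, edgeR adjusted p = 1.12e-07). The closest muscle actins were scarce: Actg2, the enteric smooth muscle actin, averaged 2.82 ± 1.45 CPM in Px and 0.0789 ± 0.0854 CPM in Sham (SD), and Acta1 averaged 3.14 ± 1.56 CPM in Px and 1.62 ± 0.65 CPM in Sham. How reads that fit more than 1 actin gene were counted is not stated, so the split between actins is uncertain.

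Tagln encodes transgelin, an actin-binding protein of smooth muscle. It measured 86.6, 62.1 and 114 CPM in higher-glucose Px, 37.8 to 153 CPM with a median of 98.9 in lower-glucose Px, and 5.76, 7.44, 7.02, 10.5 and 6.38 CPM in Sham. The highest Px library was lower-glucose rat 2 and the lowest again rat 11. The log2 fold change was 3.67 ± 0.28 (SE, edgeR adjusted p = 3.22e-08). Tagln shares 204 exon bases with Sidt2 on the same strand, and how reads there were assigned is not stated.

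Myh11, the smooth muscle myosin heavy chain and the most specific contractile marker of the group, measured 195, 141 and 206 CPM in higher-glucose Px, 47.4 to 107 CPM with a median of 82.6 in lower-glucose Px, and 16.9, 12.2, 14.1, 18.6 and 13.6 CPM in Sham. The 3 groups did not overlap. The log2 fold change for Px over Sham was 2.86 ± 0.36 (SE, edgeR adjusted p = 4.2e-06).

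Cnn1 encodes calponin 1, a regulator of actomyosin in smooth muscle, and was the scarcest member. It measured 2.74, 1.78 and 3.46 CPM in higher-glucose Px, 0.819 to 2.5 CPM in lower-glucose Px, and at most 0.178 CPM in Sham, where the 5 libraries held 2, 0, 1, 4 and 2 counts. Every Px library held at least 15 counts. The fitted log2 fold change of 4.47 ± 0.46 (SE, edgeR adjusted p = 5.25e-07) therefore rests on few Sham counts, and its size depends on the fit.

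Des encodes desmin, the intermediate filament of muscle cells that is also carried by pericytes and by stellate cells. It measured 18.0, 21.7 and 26.1 CPM in higher-glucose Px, 15.5 to 57.7 CPM with a median of 18.0 in lower-glucose Px, and 1.43, 1.77, 1.93, 2.94 and 1.44 CPM in Sham. Lower-glucose rat 8 stood apart at 57.7 CPM, with rat 14 next at 33.3 CPM. The log2 fold change was 3.67 ± 0.36 (SE, edgeR adjusted p = 2.98e-07).

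Pdgfrb, the receptor through which endothelial PDGF-B recruits pericytes, measured 58.2, 58.4 and 78.3 CPM in higher-glucose Px, 76.1 to 138 CPM with a median of 96.5 in lower-glucose Px, and 32.5, 38.6, 30.7, 41.4 and 34.9 CPM in Sham. Rgs5, a regulator of G protein signalling enriched in pericytes, measured 74.7, 64.5 and 118 CPM in higher-glucose Px, 58.1 to 113 CPM with a median of 77.8 in lower-glucose Px, and 36.2, 43.1, 32.9, 36.7 and 39.3 CPM in Sham. Cspg4, the NG2 proteoglycan of pericytes, measured 27.5, 23.3 and 30.1 CPM in higher-glucose Px, 24.5 to 32.3 CPM with a median of 26.2 in lower-glucose Px, and 14.7, 13.8, 14.4, 18.6 and 15.3 CPM in Sham. Pdgfrb, Rgs5 and Cspg4 had the 3 smallest differences of the members. Their log2 fold changes were 1.34 ± 0.19 for Pdgfrb, 1.16 ± 0.18 for Rgs5 and 0.82 ± 0.09 for Cspg4 (SE), with edgeR adjusted p of 1.38e-05, 2.75e-05 and 1.13e-06. Scaling by library totals alone moved the median of all genes to -0.61 and called 2816 of 15661 genes higher. Rgs5 (0.54, edgeR adjusted p = 0.089) and Cspg4 (0.20, edgeR adjusted p = 0.437) then no longer passed, while the other 8 did.

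Pdgfra, the PDGF receptor of fibroblasts and stellate cells, measured 18.9, 27.5 and 31.5 CPM in higher-glucose Px, 31.9 to 82.1 CPM with a median of 70.0 in lower-glucose Px, and 5.34, 13.1, 3.95, 4.73 and 5.81 CPM in Sham. Sham rat 24 was the highest Sham library for Pdgfra and also for the summed stellate cell and fibroblast genes (807 CPM). Thy1, a surface glycoprotein of fibroblasts that rat thymocytes also carry, measured 30.6, 26 and 35.7 CPM in higher-glucose Px, 23.8 to 78.9 CPM with a median of 44.5 in lower-glucose Px, and 7.29, 10.6, 9.0, 12.2 and 9.08 CPM in Sham. The log2 fold changes for Px over Sham were 2.94 ± 0.42 for Pdgfra and 2.26 ± 0.31 for Thy1 (SE, edgeR adjusted p = 1.27e-05 and 9.64e-06).

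**Figure D1:**
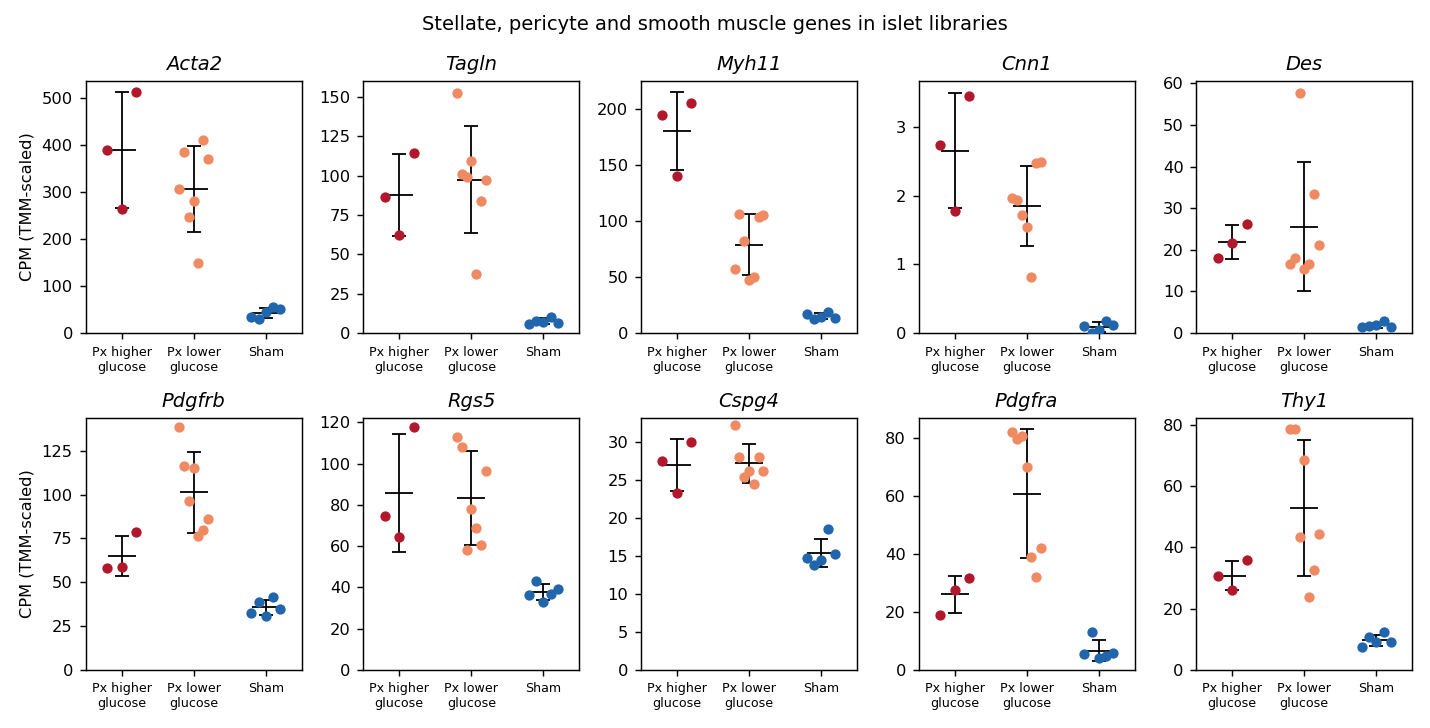
Level of each member in every library, in CPM on TMM-scaled library sizes (vertical axes, each from 0), for higher-glucose Px (n = 3), lower-glucose Px (n = 7) and Sham (n = 5). Points are libraries, and black bars are the group mean with 1 SD; in all 10 panels every Px point lies above every Sham point, and Myh11 and Pdgfra also separate the Px groups, in opposite directions.

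Each Px group taken alone gave the same counts: 10 of 10 members were higher in higher-glucose Px than in Sham, where 32.2% of all genes were called higher and 25.5% lower, and 10 of 10 in lower-glucose Px than in Sham, where 33.6% were called higher and 30% lower (57.7% and 63.5% in either direction). No member overlapped Sham in either group, a separation that 30.2% of all genes showed in higher-glucose Px and 22.8% in lower-glucose Px in this direction; these comparisons share the Sham libraries. Of the genes called, 55.8% were higher in higher-glucose Px and 52.8% in lower-glucose Px, against 17.0% and 30.2% on library totals alone and 86.9% and 94.1% when scaled to the endocrine granule genes. On library totals alone the median of all genes was -0.96 in higher-glucose Px and -0.48 in lower-glucose Px. There 5 members passed in higher-glucose Px, where Pdgfrb (-0.11) and Cspg4 (-0.18) turned below 0, and 9 passed in lower-glucose Px. This scaling called 1865 of 15661 genes higher in higher-glucose Px and 3089 in lower-glucose Px. A covariate for the acinar markers kept all 10 calls in Px against Sham, where 3362 of 15661 genes were called higher. The acinar sums did not overlap between Px (155636 to 750038 CPM) and Sham (6630 to 118497 CPM). This fit therefore cannot fully separate acinar content from surgery. With a macrophage covariate 0 members and 0 of all 15661 genes passed, the member log2 fold changes were 0.55 to 3.35 with Des at -0.38, and the macrophage sums did not overlap between Px and Sham. Des was also below 0 with this covariate in higher-glucose Px (-0.41) and in lower-glucose Px (-0.55). With an endothelial covariate 8 members passed in all Px, 4 in higher-glucose Px and 8 in lower-glucose Px. In the same order, 2699, 1140 and 2519 of 15661 genes were called higher. In all Px, Myh11 (1.30, edgeR adjusted p = 0.111) and Rgs5 (0.52, edgeR adjusted p = 0.25) did not pass.

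The authors' deposited table listed all 10 members, and its log2 fold changes for Px over Sham differed from those given here by at most 0.149. For Acta2 the authors' deposited table gave a log2 fold change of 2.91, against 2.94 in the present fit.

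The order of the members differed between Px and Sham when levels were set per length (CPM per kilobase of exon). In Px, Acta2 was highest at 238 ± 73.6 CPM per kb (SD, n = 10), followed by Rgs5 at 103, Tagln at 75.3, Thy1 at 34.8, Myh11 at 16.4, Pdgfrb at 15.9, Des at 11.3, Pdgfra at 7.72, Cspg4 at 3.36 and Cnn1 at 1.40. In Sham, Rgs5 was highest at 46.0 CPM per kb, followed by Acta2 at 31.0, Thy1 at 7.26, Pdgfrb at 6.25, Tagln at 5.92, Myh11 at 2.25, Cspg4 at 1.90, Pdgfra at 1.01, Des at 0.874 and Cnn1 at 0.0591. Acta2 thus exceeded Rgs5 in 10 of 10 Px libraries, and Rgs5 exceeded Acta2 in 5 of 5 Sham libraries. Neighbours such as Myh11 and Pdgfrb in Px, or Thy1, Pdgfrb and Tagln in Sham, had overlapping ranges.

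A ratio within a library does not depend on how libraries are scaled. The log2 ratio of Acta2 to Pdgfrb, both per length, was 4.21 to 4.77 in higher-glucose Px, 3.0 to 4.4 in lower-glucose Px and 1.70 to 2.59 in Sham. The log2 ratio of Myh11 to Pdgfrb was 1.04 to 1.51 in higher-glucose Px, -1.51 to 0.15 in lower-glucose Px and -1.90 to -1.17 in Sham. Thus Acta2 gained on Pdgfrb in all Px libraries, whereas for Myh11 the lower-glucose Px and Sham ranges overlapped. The log2 ratios of Rgs5 to Pdgfrb (2.94 to 3.39 in higher-glucose Px, 2.07 to 2.96 in lower-glucose Px, 2.62 to 2.97 in Sham) and of Cspg4 to Pdgfrb (-1.89 to -1.58, -2.64 to -2.01 and -1.98 to -1.59 in the same groups) were lowest in lower-glucose Px, where every Cspg4 ratio lay below every Sham ratio.

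In the edgeR fit on TMM-scaled libraries, higher-glucose Px islets held more Myh11 and less Pdgfrb than lower-glucose Px islets. Neither call held in every alternative fit, and the other 8 members did not pass the test. This contrast called 3.29% of all genes higher and 1.59% lower (4.88% together), against 1 higher and 1 lower of the 10 members. Of the genes called 67.4% were higher, against 32.4% on library totals alone, 33.3% when scaled to the endocrine granule genes, 54.9% with TMM computed without acinar genes and 50.3% with DESeq2. Myh11 averaged 180.4 ± 34.8 CPM in higher-glucose Px and 79.1 ± 27.1 CPM in lower-glucose Px (SD, n = 3 and 7), a log2 fold change of 1.19 ± 0.24 (SE, edgeR adjusted p = 0.00923). Pdgfrb averaged 65.0 ± 11.6 CPM in higher-glucose Px and 101 ± 23 CPM in lower-glucose Px, a log2 fold change of -0.64 ± 0.18 (SE, edgeR adjusted p = 0.0485). The ranges of Pdgfrb overlapped, since higher-glucose rat 19 at 78.3 CPM lay above lower-glucose rat 11 at 76.1 CPM. Leaving out 1 library ended the call of Myh11 in 2 of 15 fits and that of Pdgfrb in 12. Within Px rats 11 to 19 neither gene passed.

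Pdgfra did not pass, although its groups did not overlap: 26 ± 6.44 CPM in higher-glucose Px and 60.7 ± 22.3 CPM in lower-glucose Px, log2 fold change -1.23 ± 0.37 (SE, edgeR adjusted p = 0.0685; 4.41% of all genes were lower without overlap and 5.4% higher). With DESeq2 it passed (adjusted p = 0.00971), as with limma voom (adjusted p = 0.046). Thy1 gave -0.78 ± 0.31 (adjusted p = 0.151), Cnn1 0.52 ± 0.36 (0.394), Acta2 0.34 ± 0.27 (0.461), Des -0.22 ± 0.36 (0.736) and Tagln -0.15 ± 0.29 (0.783) as log2 fold changes with SE and edgeR adjusted p. Rgs5 and Cspg4 had the values nearest to 0, at 0.04 ± 0.21 and -0.01 ± 0.11 (SE). On library totals alone (median of all genes -0.53) Acta2 was at -0.10 and Rgs5 at -0.44, and Rgs5 was at -0.22 when scaled to the endocrine granule genes (median of all genes -0.26), so their directions depend on the scaling.

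**Figure D2:**
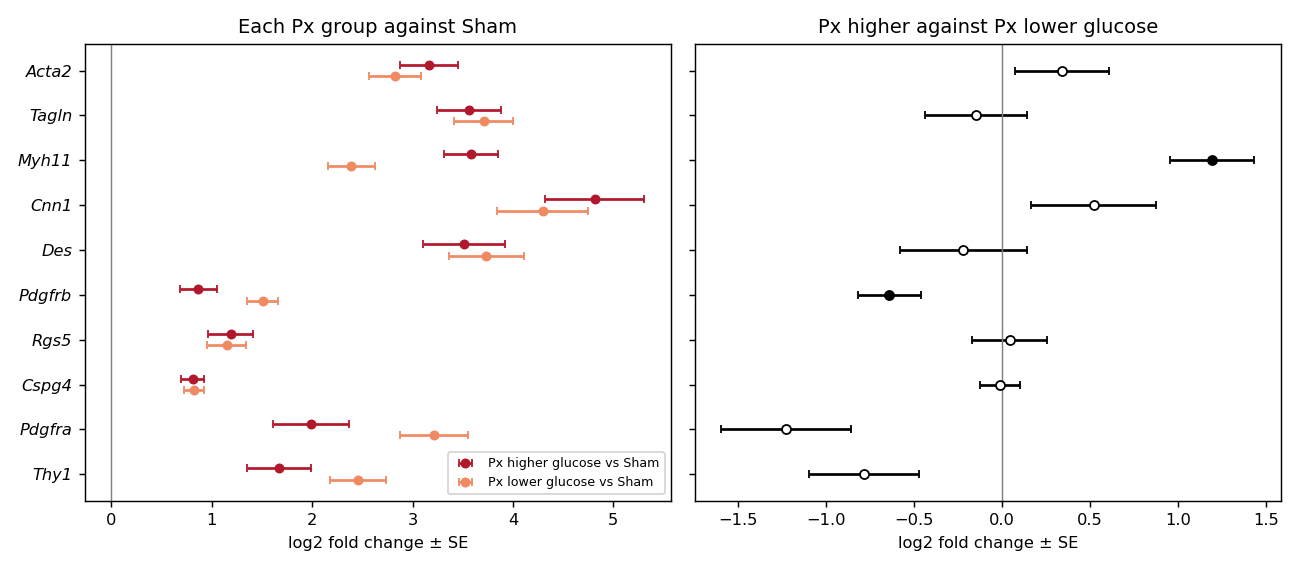
Log2 fold changes (horizontal axes) with SE for each member, from the edgeR fit of 3 groups. Left, higher-glucose Px (dark red) and lower-glucose Px (orange) against Sham, all above 0; right, higher-glucose against lower-glucose Px, where filled points passed the adjusted threshold of 0.05 (Myh11 at 1.19 and Pdgfrb at -0.64) and open points did not.

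Among the lower-glucose Px rats, Pdgfra and Pdgfrb also separated by the rat numbers in the labels, and the ranges of Thy1 overlapped narrowly. Rats 2, 4, 8 and 10, all lower-glucose, held 70.0 to 82.1 CPM of Pdgfra, 96.5 to 138 CPM of Pdgfrb and 43.4 to 78.9 CPM of Thy1. Lower-glucose rats 11, 14 and 16 held 31.9 to 41.9 CPM of Pdgfra, 76.1 to 86.3 CPM of Pdgfrb and 23.8 to 44.5 CPM of Thy1, and the higher-glucose rats bore the numbers 13, 15 and 19. The acinar share was 18.4% to 25.4% in rats 2 to 10 and 27.1% to 45.6% in rats 11 to 19. What the numbers stand for is not given in the labels.

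Within rats 11 to 19, 3 against 3 (chosen after seeing the data), the values were 1.07 for Myh11 (log2 fold change, edgeR adjusted p = 0.0896), -0.31 for Pdgfrb (0.431), -0.53 for Pdgfra (0.607) and -0.12 for Thy1 (0.895), so no member passed. Myh11 there measured 141 to 206 CPM in higher-glucose Px and 49.7 to 106 CPM in lower-glucose Px, without overlap. Leaving out higher-glucose rat 13 or 19 ended the call of Myh11 (adjusted p = 0.0542 and 0.0531), and Pdgfrb lost its call in 12 of 15 such fits. Scaled by library totals alone neither passed (Myh11 0.73, adjusted p = 0.0862, and Pdgfrb -1.16, adjusted p = 0.0747), nor did Myh11 when scaled to the endocrine granule genes (0.92, adjusted p = 0.0728).

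**Figure D3:**
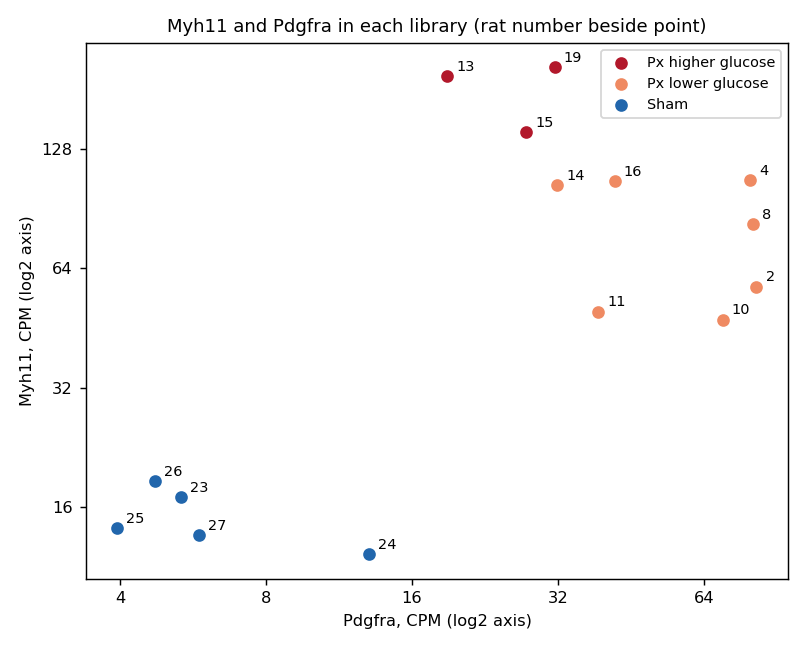
Myh11 (vertical) against Pdgfra (horizontal) in each of the 15 libraries, in CPM on log2 axes, with the rat number beside each point. Higher-glucose Px (dark red) lies at 141 to 206 CPM of Myh11, above all lower-glucose Px (orange), and Pdgfra is highest in rats 2, 4, 8 and 10; Sham (blue) is lowest in both.

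Among the 7 lower-glucose Px rats, no member and none of the 13752 genes tested followed glucose at the adjusted threshold (edgeR, slope per doubling of the glucose label); 1277 genes and 2 members had an unadjusted p under 0.05, and 1 gene passed with no filter on low counts. These members were Acta2 at -1.29 ± 0.34 and Cnn1 at -1.46 ± 0.38, in log2 units with SE (edgeR adjusted p = 0.384 for both). Glucose was highest in rat 11 (211), which had the lowest Acta2, Tagln, Cnn1 and Thy1 of the Px rats. Without it the Acta2 slope was -0.76, the smallest in size of the 7 fits that each left out 1 rat.

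Over the 10 Px libraries Acta2, Cnn1 and Myh11 varied together, and Pdgfra, Pdgfrb and Thy1 varied together. In log2 CPM, Pearson's r was 0.96 for Acta2 and Cnn1, 0.78 for Cnn1 and Myh11 and 0.69 for Acta2 and Myh11. It was 0.93 for Pdgfra and Pdgfrb, 0.91 for Pdgfrb and Thy1 and 0.81 for Pdgfra and Thy1. Myh11 ran against Pdgfra (-0.67) and Pdgfrb (-0.63). Tagln related to genes of both sets, with 0.77 to Thy1 and 0.66 to Acta2. Among pairs of Pdgfrb, Rgs5 and Cspg4, r was highest for Rgs5 and Cspg4 (0.71). Des had an r of -0.46 to 0.22 with the other members. Without rat 8 its r was 0.55 with Acta2, 0.57 with Cnn1 and 0.53 with Myh11, and -0.46 to 0.10 with the rest. These values pool higher-glucose and lower-glucose Px, which Myh11 and Pdgfra separated in opposite directions, and r within each group was not computed. The 10 libraries also share the number split, depth and acinar share.

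**Figure D4:**
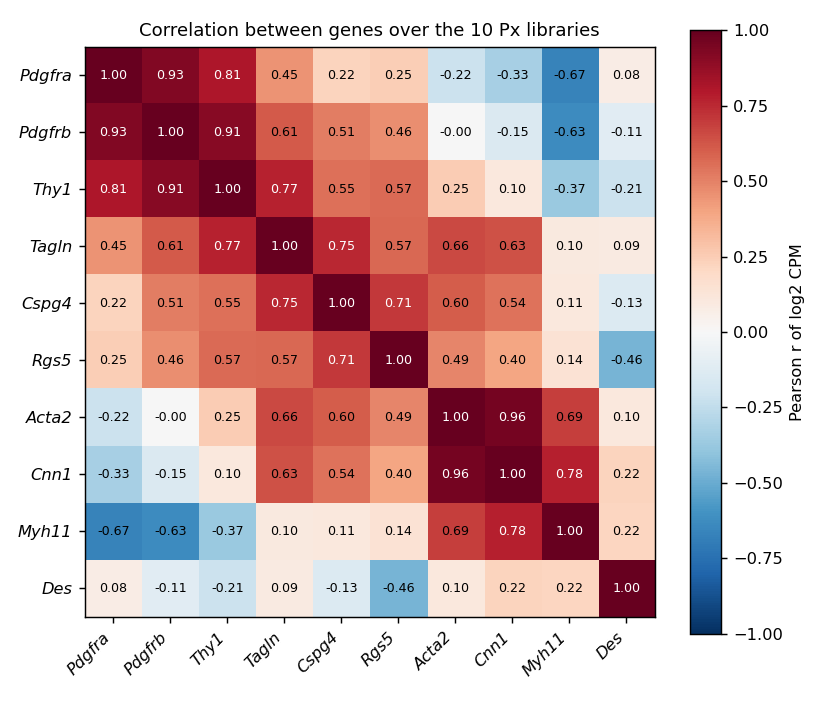
Pearson correlation of log2 CPM between members over the 10 Px libraries, with r printed in each cell (red positive, blue negative). Pdgfra, Pdgfrb and Thy1 form a block at 0.81 to 0.93, Acta2, Cnn1 and Myh11 a block at 0.69 to 0.96, and Des stands apart.

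The genes most like each member over these 10 libraries, of 13126 with a mean of at least 1 CPM, were named by the highest Pearson's r. For Acta2 they were Cnn1 (0.957), the matrix proteoglycan gene Fmod (0.934) and Mcee (0.929). For Cnn1 they were Acta2 (0.957), the calsequestrin gene Casq2 (0.954) and the myosin light chain gene Myl9 (0.954). For Myh11 they were Sema3g (0.978), Aif1l (0.976) and Fastkd2 (0.964), and for Tagln Zfp521 (0.955), Mcoln1 (0.950) and Mfge8 (0.940). Acta2 and Cnn1 were thus each nearest to the other. For Pdgfra they were Igsf10 (0.987), Glb1l (0.985) and the fibroblast activation protein gene Fap (0.974), for Pdgfrb Frem1 (0.973), Ccdc80 (0.968) and the guanylate cyclase gene Gucy1a2 (0.967), and for Thy1 Slit2 (0.963), Dcakd (0.961) and the integrin gene Itga8 (0.961). The receptor genes, like every member except Acta2 and Cnn1, lay closest to a gene other than the members. For Rgs5 they were the endothelin receptor gene Ednrb (0.954), Bex2 (0.946) and Igip (0.943), and for Cspg4 Ecm1 (0.887), Vtn (0.878) and Nkd2 (0.872). Des was nearest to Cap1 (0.969). Rat 8, the highest in Des, also had the highest T cell marker sum (167 CPM) and the highest macrophage marker sum (780 CPM). Without rat 8 the r of Des with Cap1 was 0.942.

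Other genes of these cell types were counted from lists, beside 34.6% of all genes tested that were higher in Px and 29.9% that were lower. Of 22 further genes of the smooth muscle contractile apparatus, 17 rose and 2 fell in Px relative to Sham, with a median log2 fold change of 2.02 against 0.03 over all genes. Csrp1, a cysteine-rich protein of smooth muscle, averaged 104 ± 17.8 CPM in Px and 20.5 ± 3.50 CPM in Sham (SD), a log2 fold change of 2.34 ± 0.15 (SE, edgeR adjusted p = 7.58e-09). The tropomyosin gene Tpm2 averaged 29.4 ± 10.8 CPM in Px and 3.13 ± 0.757 CPM in Sham, and filamin A (Flna) and caldesmon (Cald1) also rose, by 2.71 and 1.87 on the log2 scale. Pgm5, a phosphoglucomutase relative found at adherens junctions of muscle, fell to 48.7 ± 6.24 CPM in Px, against 166 ± 20.4 CPM in Sham, and the actin-binding protein gene Synpo2 to 70.1 ± 8.97 CPM in Px, against 135 ± 24.3 CPM in Sham.

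Of 13 regulators of the smooth muscle programme that were tested (17 listed), 11 rose and 2 fell, with a median log2 fold change of 1.70 (0.03 over all genes, of which 34.6% were higher and 29.9% lower). Gata6 (log2 fold change 1.84), Mef2c (1.70), Heyl (1.68) and Tead4 (1.58) rose. Serum response factor itself (Srf) fell by 0.27 on the log2 scale, with 31.9 ± 2.99 CPM in Px and 38.4 ± 4.19 CPM in Sham (SD, edgeR adjusted p = 0.00936), and Tead1 by 0.45; scaled to the endocrine granule genes both were above 0, at 0.35 and 0.14.

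Of 17 further pericyte genes tested, 13 rose and 1 fell, with a median log2 fold change of 1.14 (0.03 over all genes). The endothelin receptor Ednra averaged 19.3 ± 3.26 CPM in Px and 5.31 ± 0.767 CPM in Sham, Notch3 averaged 105 ± 22.1 CPM in Px and 43.6 ± 11.1 CPM in Sham, and Olfml2a (2.19) and the guanylate cyclase subunit Gucy1a3 (1.75) rose as well on the log2 scale. Lamc3, at under 1 CPM, fell by 1.14, a call lost in 1 of 15 fits that each left out a library (adjusted p = 0.0525). All 26 stellate cell and fibroblast genes rose, with a median of 3.36: Igf1 averaged 35.6 ± 6.41 CPM in Px and 3.13 ± 1.44 CPM in Sham, and the proteoglycan Dcn 156 ± 41.5 CPM in Px and 16.4 ± 3.72 CPM in Sham, with Fbln1 (3.56) and Gsn (2.34) also higher on the log2 scale.

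Of 10 genes of PDGF signalling beside the receptors, 7 rose and 3 fell, with a median log2 fold change of 0.97 (0.03 over all genes, of which 34.6% were higher and 29.9% lower). The count of genes that fell is thus near the share over all genes. The ligand genes Pdgfa (12.1 ± 2.5 CPM in Px and 3.68 ± 0.442 CPM in Sham) and Pdgfc (6.22 ± 1.87 CPM in Px and 1.19 ± 0.362 CPM in Sham) rose, as did the co-receptor genes Lrp1 (log2 fold change 1.56) and Nrp1 (0.92). The adaptor Grb2 fell by 0.52, the phosphatase Ptpn11 by 0.40 and the receptor-like gene Pdgfrl by 0.70 on the log2 scale. Scaled to the endocrine granule genes Grb2 was at 0.09 and Ptpn11 at 0.20.

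The lists were also compared between the Px groups, where 3.29% of all genes were higher and 1.59% lower. Of the 26 stellate cell and fibroblast genes, 5 were lower and 0 higher in higher-glucose Px, among them the collagen genes Col1a1 (296 ± 194 CPM in higher-glucose Px and 1334 ± 597 CPM in lower-glucose Px, SD) and Col1a2, the elastic fibre gene Mfap5 and the crosslinking enzyme Lox, with log2 fold changes of -2.17, -1.93, -1.50 and -1.42. Of 22 contractile genes 1 was higher (Lmod1, leiomodin, 1.37 ± 0.34, SE, edgeR adjusted p = 0.0326), with 12.7 ± 2.83 CPM in higher-glucose Px and 4.94 ± 2.25 CPM in lower-glucose Px. Of 10 PDGF genes 1 was lower (Lrp1, -0.68 ± 0.17, SE, edgeR adjusted p = 0.0304), and 0 of 13 regulators passed. Lmod1 no longer passed on library totals alone, and neither Lmod1 nor Lrp1 passed when scaled to the endocrine granule genes or with the endothelial covariate. Leaving out 1 library ended the call of Lmod1 in 5 of 15 fits and of Lrp1 in 4. Col1a1 lost its call in 3, Col1a2 and Mfap5 in 2 each and Lox in 1. The sum of the stellate cell and fibroblast genes was 2059 to 3544 CPM in higher-glucose Px, 4508 to 5655 CPM in lower-glucose rats 11, 14 and 16, and 6677 to 9331 CPM in lower-glucose rats 2, 4, 8 and 10. Within rats 11 to 19 none of these 6 named genes passed (edgeR adjusted p of 0.187 for Col1a2 to 0.268 for Lmod1), and each had the sign given above.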

How the data were processed

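The deposited counts are raw read counts per gene in 15 libraries, with exon length in bases, per the file headers. FastQC, Subread, featureCounts and limma are the tools named by the authors, per the submitters' processing notes. Neither their versions nor the genome build, annotation or strand setting is given in the sources used here; a directional kit is named per the labels' protocols. The authors' deposited comparison table holds log2 fold changes and average log2 expression, a fold change as a ratio, and p-values with adjusted p-values; it was used only where named.

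The members and the 13 gene lists (171 genes, 167 in the table) were chosen with earlier results of these data known. filterByExpr with a minimum count of 10 and a minimum total of 15 left 15661 genes and all 10 members, and TMM scaled the libraries. In R 4.3.3, edgeR 4.0.16 compared Px with Sham in a fit of 2 groups and the 3 other pairs in a fit of 3 groups by two-sided quasi-likelihood tests, with Benjamini-Hochberg adjustment over all genes at 0.05. The slope on log2 glucose was fitted in the 7 lower-glucose Px libraries. The SE is the absolute log2 fold change divided by the square root of F. Log2 CPM used a prior count of 2. The fit of Px against Sham was tested on simulated counts, while the fit of 3 groups and the slope fit were not. All 105 pairs of libraries differed in at least 17288 genes, so no library was a copy of another.

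Named were all members, up to 4 genes of each mesenchymal list with the smallest p in each direction, and the 3 genes with the highest Pearson's r to each member. Actg2, Acta1, Cnn2 and Ldb3 fall outside this rule and were named after their values were seen. Some genes that the rule names, and the results that need them, are not reported here. Alternatives used DESeq2 1.42.0, limma 3.58.1 voom, other scalings and filters, thinned counts, covariates and leaving out each library.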

Additional observations from a re-analysis of the deposited data

Results flagged for a closer look

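Each of the 10 members was examined in Sham, in lower-glucose Px and in all Px, giving 30 groups of 5 to 10 libraries. These groups are not separate, since all Px includes the lower-glucose libraries. Of their values, 2 stood farther from the rest than Dixon's 95% limit, which chance alone passes in about 1 of 20 groups. Pdgfra in Sham rat 24 was 13.1 CPM, with the next Sham library at 5.81 CPM. Des in lower-glucose Px rat 8 was 57.7 CPM, with the next at 33.3 CPM, both among the 7 lower-glucose Px libraries and among all 10 Px libraries.

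The effects of Px against Sham differed between the Px groups for 2 of 10 members, by the test of higher-glucose against lower-glucose Px. This test called 4.88% of all genes (3.29% higher and 1.59% lower). The log2 fold change was 1.19 for Myh11 and -0.64 for Pdgfrb. Leaving out 1 library ended the call of Myh11 in 2 of 15 fits and that of Pdgfrb in 12. Neither passed on library totals alone or within Px rats 11 to 19.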

How the results depend on the processing

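All 10 members stayed higher in Px than in Sham under every other scaling, filter, tool and left-out library tried, and in Px rats 11 to 19 alone (chosen after seeing the data), except on library totals alone (8 members) and with the endothelial (8) and macrophage (0) covariates. Leaving out each library gave 10 to 10 members in the 3 comparisons with Sham. The causes of the changes below were not tested. With the acinar covariate 6060 genes were called in Px against Sham, 4609 in higher-glucose Px and 6505 in lower-glucose Px. With the endothelial covariate the counts were 4856, 2124 and 4642 genes, and 8, 4 and 8 members. With the macrophage covariate 0, 3 and 0 genes and 0 members passed in each; Des was at -0.38, -0.41 and -0.55, and Tead1 at 0.69. On library totals alone 5 members passed in higher-glucose Px, beside 1865 of 15661 genes called higher, with Pdgfrb at -0.11 and Cspg4 at -0.18. Scaled to the endocrine granule genes, Tead1 was at 0.14, Srf at 0.35, Grb2 at 0.087 and Ptpn11 at 0.20.

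For higher-glucose against lower-glucose Px, 764 genes passed. Library totals alone gave 142 genes and 0 members higher or lower, with Acta2 at -0.10 and Rgs5 at -0.44. Endocrine granule scaling gave 418 genes and 0 members higher, with Rgs5 at -0.22. The endothelial covariate gave 496 genes, with Acta2 at -0.068 and Rgs5 at -0.21, and the macrophage covariate gave Des 0.14 and Rgs5 -0.0030. DESeq2 gave 1363 genes and 2 members lower, and limma voom 2 members lower. No members were lower (0) with no filter, with thinned counts (Cspg4 at 0.036) or with the acinar covariate (Cspg4 at 0.0055). Px rats 11 to 19 gave 116 genes and 0 members higher or lower, with Tagln at 0.27 and Cspg4 at 0.043. Leaving out each library gave 270 to 983 genes, 0 to 1 members higher and 0 to 2 lower, with ranges of -0.10 to 0.083 for Cspg4, -0.26 to 0.21 for Rgs5, -0.39 to 0.048 for Tagln and -0.36 to 0.12 for Des.

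For the glucose slope, 1 gene passed with no filter and 0 otherwise. Leaving out each library gave -0.56 to 2.16 for Pdgfra, -0.56 to 0.77 for Pdgfrb, -2.03 to 0.38 for Tagln, -1.51 to 1.5 for Thy1, -0.86 to 0.20 for Des and -0.80 to 0.25 for Rgs5. No paired analysis was possible because the groups share no replicate numbers. Of the members, Cnn1 was limited by depth, with at most 4 counts in a Sham library.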
